A study of Mus musculus with 2 samples.

Results

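Chemokines are small secreted proteins that guide leukocytes along a gradient, and an LPS-stimulated macrophage releases many of them at once. The 10 chemokine genes described here are Ccl2, Ccl3, Ccl4, Ccl5, Ccl7, Ccl9, Ccl22, Cxcl1, Cxcl2 and Cxcl10, taken by symbol out of 23924 gene symbols in the deposited table. Each had 1 transcript row, so no rows had to be added up. Of the 10 genes, 6 lie on chromosome 11 (the Ccl cluster), 3 on chromosome 5 (the Cxcl genes), and Ccl22 lies apart on chromosome 8.

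The design sets nuclear RNA recovered with an antibody against nucleolin, an abundant RNA-binding protein of the nucleolus, against RNA recovered with a control antibody. Its 2 libraries came from nuclear extracts of RAW 264.7 cells, an established mouse macrophage line, and the cytosolic fraction was left out. In both groups the cells were depleted of mRrp6 (a nuclear exosome ribonuclease) and received LPS at 80 ng/ml for 12 h. By the labels the groups differed in the antibody alone, anti-rabbit IgG as the control (n = 1) against anti-nucleolin (n = 1). With 1 library a group there is no replicate check, no test between the groups and no p-value, and untreated or undepleted cells are not part of the comparison, so neither the depletion nor the response to LPS can be checked here. No total RNA of the same nuclei is analysed here, so the amount of an RNA in the nucleus and its recovery by the antibody cannot be told apart, nor can fewer cells with an RNA and less of it per cell.

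As background, CC chemokines such as Ccl2, Ccl3, Ccl4 and Ccl5 mainly attract monocytes and lymphocytes, whereas Cxcl1 and Cxcl2 attract neutrophils and Cxcl10 attracts activated T cells. LPS is sensed through Tlr4, which switches on the transcription factor NF-kappa B and, through a second arm, interferon regulatory factors. Many chemokine messages carry AU-rich elements in their tails and are short-lived.

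The promoters of these genes are shown because NF-kappa B is their textbook regulator. A further reason is that the neighbours Cxcl1 and Cxcl2 carry the same element although only Cxcl2 was listed above 0. That contrast rests on 3 fragments of Cxcl2 against 0 of Cxcl1 in the nucleolin library, as recovered below. Their exact intervals of counting error overlap, at 0.102 to 1.44 per 10000 library fragments for Cxcl2 and 0 to 0.606 for Cxcl1. A difference between these genes was not tested. A promoter was given for 6 of the 10 genes in the RefSeq table of GRCm38.p6 (mm10). The stretches below run 5′ to 3′ up to the last base before the start of the gene, and capitals mark matches to the 10-letter kappa B consensus on either strand.
Cxcl1, chr5:90891125-90891244, plus strand: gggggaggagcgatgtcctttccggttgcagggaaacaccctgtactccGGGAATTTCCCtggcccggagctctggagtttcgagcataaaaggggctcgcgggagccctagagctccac
Cxcl2, chr5:90903779-90903898, plus strand: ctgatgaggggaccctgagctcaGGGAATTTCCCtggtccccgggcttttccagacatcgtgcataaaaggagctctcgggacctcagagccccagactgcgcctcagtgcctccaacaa
Cxcl10, chr5:92348890-92349069, minus strand: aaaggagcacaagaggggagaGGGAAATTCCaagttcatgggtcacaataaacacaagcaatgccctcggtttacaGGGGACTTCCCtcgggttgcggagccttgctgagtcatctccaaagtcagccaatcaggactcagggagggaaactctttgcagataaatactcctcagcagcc
Ccl9, chr11:83578637-83578756, minus strand: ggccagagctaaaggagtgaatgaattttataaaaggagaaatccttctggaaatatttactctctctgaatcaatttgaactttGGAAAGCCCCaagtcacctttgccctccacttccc
Ccl3, chr11:83649379-83649498, minus strand: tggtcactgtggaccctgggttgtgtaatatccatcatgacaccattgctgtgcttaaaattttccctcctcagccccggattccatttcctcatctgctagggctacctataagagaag

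The same 11 letters, GGGAATTTCCC, stood 71 bases before the start of Cxcl1 and 97 bases before that of Cxcl2, where they hold overlapping matches on both strands. Cxcl10 held a match at 159 bases and overlapping matches at 104 and 103 bases before its start. Ccl9 held a match at 35 bases. In the 250 bases upstream, 4 of the 6 promoters held the kappa B consensus, against 7.25% of all 32851 promoters in the table. Ccl3 and Ccl22 held none of these letters in that window. The AP-1 motif TGANTCA (either strand, not overlapping the kappa B matches) was found in Cxcl10 at 74 bases and in Ccl9 at 53 bases, and in 6.75% of all promoters. These matches describe the sequence only, and the 2 libraries measure RNA, not promoter activity.

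Ccl3 and Ccl4 (macrophage inflammatory proteins 1 alpha and 1 beta) were the chemokines with the highest FPKM, a fragment number divided by transcript length and library total. Ccl3 was at 575 FPKM with IgG and 620.4 FPKM with anti-nucleolin. Ccl4 was at 185 FPKM with IgG and 501 FPKM with anti-nucleolin. By FPKM they were the 5th and 7th highest of the 3194 genes compared in the nucleolin library, and the 19th and 72nd in the IgG library. Ccl9 (macrophage inflammatory protein 1 gamma, a Ccr1 ligand made in quantity by resting and activated myeloid cells) followed at 30.1 FPKM with IgG and 159.8 FPKM with anti-nucleolin.

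In the nucleolin library the other chemokines were lower than these 3, while in the IgG library Ccl22 and Cxcl10 stood above Ccl9. Ccl5 (RANTES, a T cell and monocyte attractant) was at 55.2 FPKM with anti-nucleolin and listed at 0 with IgG. Ccl2 (monocyte chemoattractant protein 1) was at 28.7 FPKM and Cxcl2 at 58.0 FPKM in the nucleolin library, and both were listed at 0 in the IgG library. These 3 genes had a value in the nucleolin library alone, and no member had one in the IgG library alone. A value in 1 library alone was common among all genes. Of the 3194 genes compared, 538 reached 0.1 FPKM in both libraries, while 2009 genes reached it with IgG and 1729 with anti-nucleolin. Ccl22, a dendritic cell and macrophage attractant of regulatory T cells, was at 52.5 FPKM with IgG and 10.4 FPKM with anti-nucleolin. Cxcl10, an interferon-inducible chemokine, was at 47.1 FPKM with IgG and 18.97 FPKM with anti-nucleolin. Ccl7 (a monocyte attractant next to Ccl2) and Cxcl1 were listed at 0 in both.

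**Figure D1:**
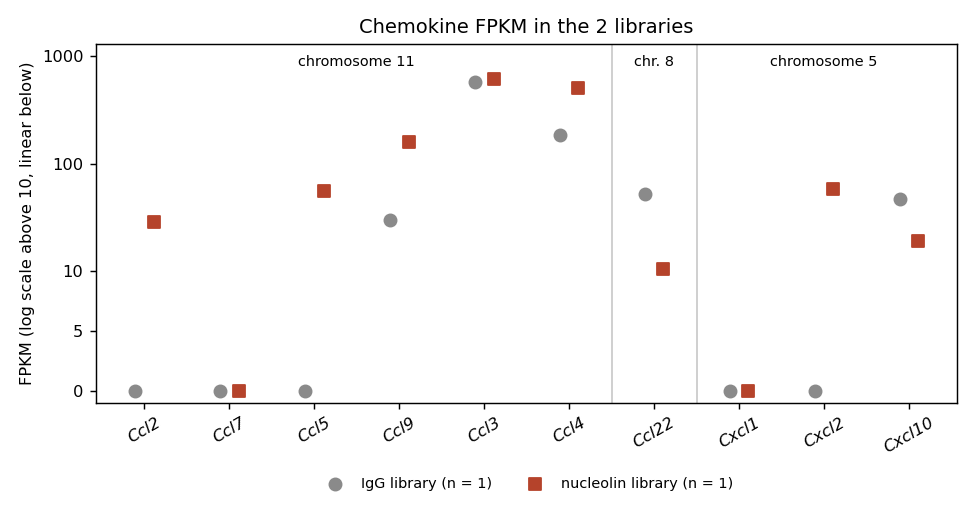
FPKM of the 10 chemokine genes (vertical axis, log scale above 10 and linear below), with the IgG library as circles and the nucleolin library as squares (n = 1 each) and the genes in map order within each chromosome. Ccl3 is at 575 and 620.4 FPKM, Ccl9 at 30.1 and 159.8 FPKM, and Ccl7 and Cxcl1 at 0 in both libraries.

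On the scale of log2((nucleolin FPKM + 1)/(IgG FPKM + 1)), 5 of the 8 genes that reached 1 FPKM in a library were 2-fold or more above IgG with anti-nucleolin and 2 were as far below it. Among all 3194 genes compared, 37.8% were 2-fold higher and 56.7% 2-fold lower. Of the 5 higher genes, 3 were at 0 in the IgG library, so a fold cannot be given for them. Among the 5 chemokines with values in both libraries, Ccl4 (a log2 ratio of 1.44) and Ccl9 (2.37) were higher, Ccl22 (-2.23) and Cxcl10 (-1.27) lower, and Ccl3 (0.11) within 2-fold. Among all 538 genes with values in both, 3.72% were higher and 63.6% lower. The median log2 ratio was 0.11 over the 5 chemokines and -1.19 over the 538 genes, and it was -1.27 over all 3194 genes compared. Many genes in both libraries rest on 1 fragment in each (42.5% of the 325 whose fragments are recovered below). By library depth alone, such a gene is lower with anti-nucleolin. When 1 fragment was given the same worth in both libraries, Ccl3 was also 2-fold higher and neither Ccl22 nor Cxcl10 was 2-fold lower, with log2 ratios of 1.47, -0.95 and 0.051. That setting leaves out the adjustment for library depth. It therefore raises every ratio, because the nucleolin library was 2.57 times deeper, as described below.

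How many fragments stood behind these values could be worked out from the values themselves. FPKM divides a whole number of fragments by transcript length less a term for the fragment size, and that term differed between the libraries. For a gene listed in both, a pair of whole fragment numbers that fits both values can therefore be sought. The fitting pair with the smallest total was taken, and except for Ccl4 (below) larger totals were not searched. Of 369 genes listed in both as 1 row, 325 (88.1%) had such a pair together with a transcript length within 0.01 base of a whole number. The values were scaled to 23669 fragments with IgG and 60896 with anti-nucleolin, with mean fragment lengths of 204 and 235 bases. The nucleolin library was therefore 2.57 times deeper, and a gene with the same number of fragments in both took a share of the nucleolin library that was 0.389 times its share of the IgG library.

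At this depth the chemokine values rested on few fragments. Ccl9 had 2 fragments with IgG and 27 with anti-nucleolin, on a transcript of 3008 bases. Ccl3 had 8 and 21 fragments on 790 bases. Ccl4 was given 2 and 13 fragments on 660 bases. That length is below 680 bases, under which the length term is no longer exact, and the pair met a tolerance of 0.02 base but not the stricter one, so the numbers of Ccl4 are less secure than those of Ccl9 and Ccl3. No other pair met the wider tolerance. By fragments Ccl9 thus stood above Ccl3 and Ccl4 in the nucleolin library, while by FPKM it stood below both, since its transcript is the longest of the chemokines with a recovered length.

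Ccl22 had 2 IgG fragments and 1 nucleolin fragment (1811 bases), and Cxcl10 had 1 in each (1100 bases). Cxcl2 had 3 nucleolin fragments (1083 bases) and Ccl2 had 1 (806 bases), each the single number that gave a whole length within the span of the gene. Ccl5 had no whole length at 2 or more fragments, and was taken as 1 nucleolin fragment on a transcript of about 531 bases, a length also below 680 bases. The 58.0 FPKM of Cxcl2 and the 55.2 FPKM of Ccl5 were close as levels per length and came from 3 and 1 fragments.

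**Figure D2:**
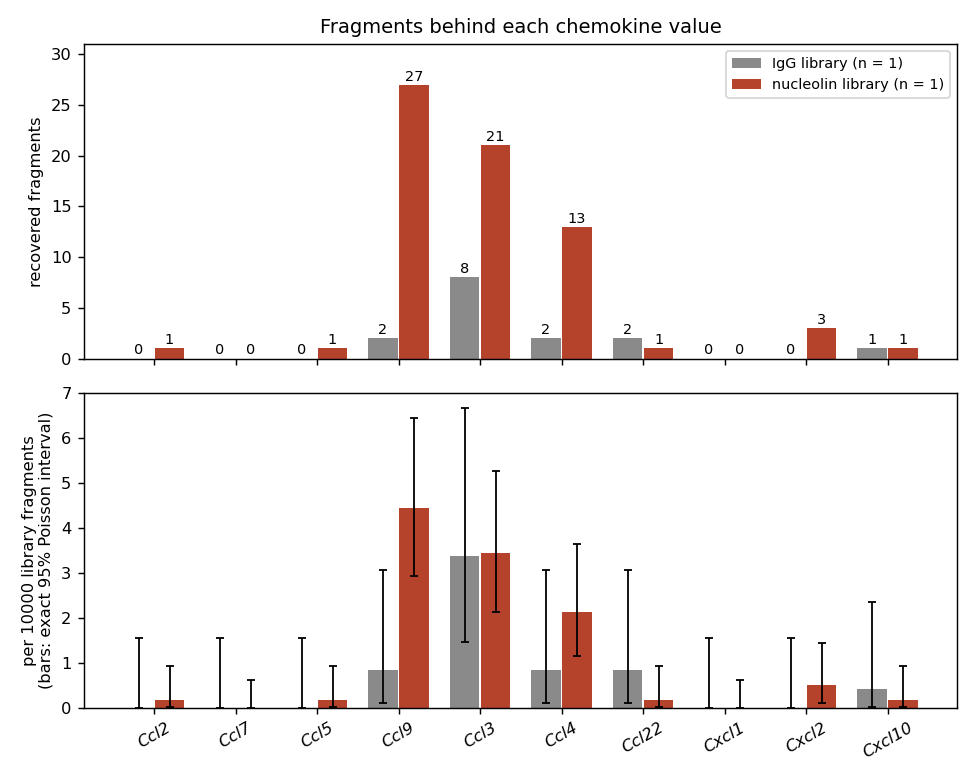
Upper panel, recovered fragments of each chemokine in the IgG (grey) and nucleolin (red) library; lower panel, the same per 10000 fragments of the library, with exact 95% Poisson intervals of counting error (n = 1 library each). Ccl9 has 2 and 27 fragments, Ccl3 has 8 and 21, Ccl4 has 2 and 13, and each of the other genes has at most 3 in either library.

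Intervals below are exact 95% intervals that cover counting error between these 2 libraries only, not the spread between experiments, and amplified fragments without molecular identifiers are not independent molecules. In shares of the library, Ccl9 took 0.845 per 10000 fragments in the IgG library (0.102 to 3.05) and 4.43 in the nucleolin library (2.92 to 6.45), a ratio of 5.25 (1.32 to 45.5). Of the 5 chemokines with fragments in both libraries, Ccl9 was the only one whose interval lay above 1. Ccl3 took 3.38 (1.46 to 6.66) and 3.45 (2.13 to 5.27) per 10000 fragments, a ratio of 1.02 (0.434 to 2.66). The ratio of Ccl4 was 2.53 (0.572 to 23.1), that of Ccl22 0.194 (0.00329 to 3.73) and that of Cxcl10 0.389 (0.00495 to 30.5), each with an interval that holds 1. These intervals depend on the library totals, which were taken to include the 4 abundant RNAs Rn45s, Lars2, Mir6236 and Mir142b. Whether the totals include them was not established. Rescaled to the summed FPKM of all other genes (a factor of 2.71), the ratio was 14.2 (3.58 to 124) for Ccl9, 6.86 (1.55 to 62.6) for Ccl4 and 2.77 (1.18 to 7.23) for Ccl3, so all 3 intervals then lay above 1. Those of Ccl22, 0.527 (0.00894 to 10.1), and Cxcl10, 1.05 (0.0134 to 82.8), still held 1. The factor of 2.71 is a ratio of FPKM sums, not of fragment numbers, and the rescaled intervals do not cover its error. Its IgG sum holds 19817 FPKM of digestive and gastric markers that were at 0 in the nucleolin library.

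For Cxcl2, Ccl2 and Ccl5, a count of 0 in the IgG library was taken to allow up to 3 fragments, or 1.27 per 10000, somewhat under the upper end of the exact interval drawn in the plot (3.69 fragments, 1.56 per 10000). Their shares of the nucleolin library were 0.493 per 10000 for Cxcl2 and 0.164 for Ccl2 and Ccl5, below either limit. With the library totals as recovered, no difference was therefore detectable at this depth. At an equal share of both libraries, the 3 nucleolin fragments of Cxcl2 correspond to 1.17 fragments in the IgG library. For Ccl7 and Cxcl1, 0 of 60896 nucleolin fragments allows up to 0.493 per 10000 by the limit of 3 fragments, and 0.606 by the exact interval.

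Within the nucleolin library, the order of the levels by FPKM was Ccl3, Ccl4, Ccl9, Cxcl2, Ccl5, Ccl2, Cxcl10 and Ccl22. Counting error alone put Ccl3 between 384 and 948 FPKM, Ccl4 between 267 and 857 FPKM and Ccl9 between 105 and 233 FPKM. Ccl3 and Ccl4 therefore did not differ beyond it, and Ccl9 lay below both. Cxcl2 (12.0 to 170 FPKM) overlapped Ccl9 above it and the 4 genes below it. In the IgG library the order was Ccl3, Ccl4, Ccl22, Cxcl10 and Ccl9; the interval of Ccl3, 248 to 1134 FPKM, overlapped that of Ccl4, 22.4 to 667 FPKM, which overlapped those of the other 3.

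The chromosome 11 cluster carried most of the chemokine signal. On mm10, Ccl2 (82035577 to 82037452) and Ccl7 (82045712 to 82047525) form one pair, and Ccl5 (83525778 to 83530518), Ccl9 (83572917 to 83578636), Ccl3 (83647843 to 83649378) and Ccl4 (83648624 to 83664683) lie together 1478 kb further on. The annotated spans of Ccl3 and Ccl4 overlap by 755 bases, and whether counting used strand is not given in the sources used here. All 6 genes summed to 790 FPKM with IgG and 1365 FPKM with anti-nucleolin, a log2 ratio of 0.79. Where 1 fragment was given the same worth in both, without adjustment for depth, it was 2.15. In fragments these sums were 12 and 63, a share ratio of 2.04 (1.09 to 4.16). Ccl9 alone held 2 of the 12 and 27 of the 63. With the library totals as recovered, the intervals of Ccl3 and Ccl4 each held 1. A chromosome 11 sum without Ccl9 was not made. Ccl9, Ccl3 and Ccl4 alone held 12 of the 15 chemokine fragments with IgG and 61 of the 68 with anti-nucleolin (80.0% and 89.7%). Their neighbour Ccl5 had 0 and 1, and the Ccl2 and Ccl7 pair had 0 and 1 together.

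The chromosome 5 genes held far fewer fragments. Cxcl1 (90891245 to 90893121) and Cxcl2 (90903899 to 90905938) are adjacent, 10777 bases apart, and Cxcl10 (92346638 to 92348889) lies 1441 kb from Cxcl2. Together they summed to 47.1 FPKM with IgG and 77.0 FPKM with anti-nucleolin, a log2 ratio of 0.70. It set a lower value of Cxcl10 against Cxcl2, which had a value with anti-nucleolin alone. Where 1 fragment was given the same worth in both, without adjustment for depth, the log2 ratio was 2.05. In fragments the sums were 1 and 4, a share ratio of 1.55 with an interval from 0.154 to 76.6, which holds the whole interval of the chromosome 11 genes. A difference between the clusters was not tested and was not detectable at this depth. Ccl22, on chromosome 8 from 94745684 to 94751388, held 2 of the 15 IgG fragments (13.3%) and 1 of the 68 nucleolin fragments (1.47%).

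Over all 10 genes, 15 of 23669 IgG fragments and 68 of 60896 nucleolin fragments were chemokine fragments. That is 6.34 per 10000 (3.55 to 10.5) against 11.2 per 10000 (8.67 to 14.2), a ratio of 1.76 whose interval, 0.997 to 3.32, just holds 1; after rescaling without the 4 abundant RNAs it was 4.78 (2.71 to 9.01). Without Ccl9 the ratio was 1.23 (0.644 to 2.49), or 3.33 (1.75 to 6.77) after rescaling. Without Ccl9, Ccl3 and Ccl4, the other 7 genes had 3 and 7 fragments, a ratio of 0.907 (0.207 to 5.44), or 2.46 (0.562 to 14.8) after rescaling.

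**Figure D3:**
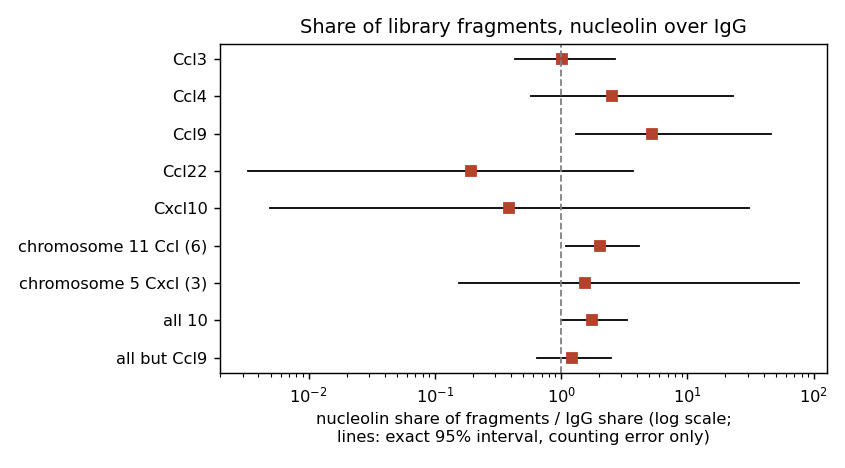
Share of library fragments in the nucleolin library over that in the IgG library (horizontal axis, log scale) for the 5 chemokines with fragments in both and for sums over genes; lines are exact 95% intervals of counting error (n = 1 library each) and the dashed line marks an equal share. The intervals of Ccl9 (1.32 to 45.5) and of the chromosome 11 sum with Ccl9 (1.09 to 4.16) lie above 1 with the recovered totals. After rescaling without the 4 abundant RNAs, the interval of Ccl3 (1.18 to 7.23) and that of Ccl4 (1.55 to 62.6) lie above 1 too.

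Ccl9 and Ccl3 stood high among the genes with a recovered pair. Pairs were searched up to a total of 100 fragments and only for genes with 1 transcript row, so more abundant genes can be missing. By FPKM, Ccl9 was 31st of the 3194 genes compared in the nucleolin library. Of the 325 genes with a recovered pair, Ccl9 had the third highest number of nucleolin fragments (27) and Ccl3 the fourth (21), after Eef1a1 (a translation elongation factor, 46) and Actb (beta-actin, 31). Only P4hb, an endoplasmic reticulum disulfide isomerase with 1 IgG and 14 nucleolin fragments, had a higher share ratio than Ccl9, at 5.44. Of the 325 genes, 3.69% had a share at least 2 times higher in the nucleolin library and 62.5% one at least 2 times lower; after rescaling without the 4 abundant RNAs these shares were 32% and 3.08%. Of the 5 chemokines in both libraries, Ccl9 and Ccl4 were on the first side (Ccl4 is not among the 325) and Ccl22 and Cxcl10 on the second; after rescaling, Ccl3 joined the first side and none was on the second. A pair of 1 and 1 fragments, that of Cxcl10, was found in 138 of the 325 genes (42.5%). At these depths such a pair always has a share ratio of 0.389, also the median of the 325 genes. These 138 genes are therefore on the lower side before rescaling through depth alone. These genes all had fragments in both libraries, and genes listed in 1 library are not part of these shares.

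**Figure D4:**
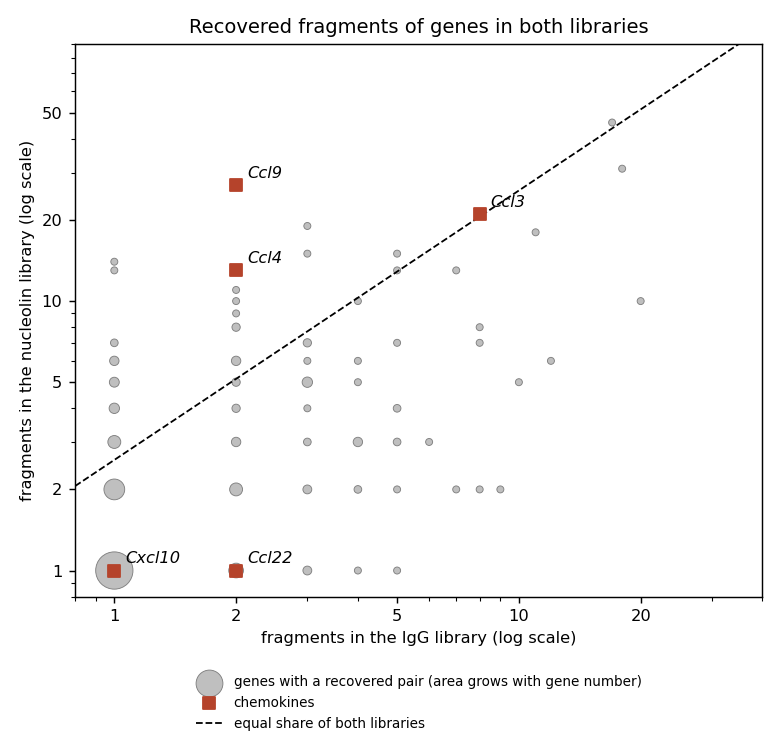
Fragments in the IgG library (horizontal axis) against the nucleolin library (vertical axis), both on log scales, for the 325 genes with a recovered pair (grey, area growing with the number of genes) and the 5 chemokines with fragments in both (red squares); the dashed line marks an equal share of both libraries. Ccl9 (2 and 27) and Ccl4 (2 and 13) lie above the line, Ccl3 (8 and 21) on it, and Cxcl10 (1 and 1) and Ccl22 (2 and 1) below it.

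The genes whose FPKM ratio was most like that of Ccl3 were taken from the 32 other genes at 100 FPKM or more in both libraries, by the distance in log2 ratio over the 2 libraries. They were Eef1a1 (a log2 ratio of 0.10), the ribosomal protein gene Rplp1 (0.13), the RNA-binding protein gene Ybx1 (0.04), the ribosomal RNA precursor Rn45s (-0.05) and Rpl10 (-0.06), against 0.11 for Ccl3. Eef1a1 had 17 and 46 fragments and Ybx1 5 and 13.

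Few other chemokine genes were measured. Of 26 further chemokine ligands 2 were measured, both in the IgG library only: Cxcl14, made mainly by epithelia, at 26.0 FPKM from 1 fragment, and Cxcl12, a stromal chemokine, at 7.73 FPKM. In the Tlr4 and NF-kappa B pathway 9 of 33 genes were measured, 6 of them 2-fold or more above IgG with anti-nucleolin and 1 as far below, against 37.8% and 56.7% of all genes compared. All 6 higher genes were at 0 in the IgG library and at 10.7 FPKM or less with anti-nucleolin, so no fold can be given for them. Cd14, the LPS co-receptor, was the highest at 319 FPKM with IgG and 207 FPKM with anti-nucleolin (11 and 18 fragments), a share ratio of 0.636 (0.284 to 1.49). Ikbkb, a kinase that frees NF-kappa B, was at 37.4 FPKM with IgG and 0 with anti-nucleolin, and Nfkb1, a subunit, at 10.8 and 12.7 FPKM (1 and 3 fragments).

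Of 12 genes for proteins that bind AU-rich or other sequences of short-lived messages, 7 were measured, 2 above and 4 below IgG by 2-fold or more, against the 37.8% and 56.7% of all genes compared. Ybx1 was at 106 and 109 FPKM. Pabpc1, which coats poly(A) tails in the cytoplasm, was at 16.1 FPKM with IgG and 38.1 FPKM with anti-nucleolin (1 and 6 fragments), and Khsrp, which promotes decay of AU-rich messages, at 33.4 FPKM with IgG (3 fragments) and 0 with anti-nucleolin.

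The labelled cell type was checked through its markers. Of 15 macrophage markers 13 were measured, summing to 825 FPKM with IgG and 761 FPKM with anti-nucleolin. Of the 13, 5 were at least 2-fold higher with anti-nucleolin and 5 at least 2-fold lower, against 37.8% and 56.7% of all genes compared. Their median log2 ratio was -0.62, against -1.27 over all genes compared. The 5 higher markers, Lyz2 (10 nucleolin fragments), Coro1a, Csf1r, Fcgr1 and Itgam, were at 0 in the IgG library. The 5 lower ones had values in both libraries, among them Cd68 at 138 FPKM with IgG and 16.2 FPKM with anti-nucleolin, Tyrobp at 116 and 49.4 FPKM, and Ctss at 73.2 and 29.2 FPKM, with Spi1 and Mpeg1. Markers of other cell types differed between the libraries. All 7 digestive and gastric markers were listed in the IgG library, summing to 19817 FPKM, as were 4 of 6 epithelial markers (339 FPKM) and 2 of 5 fibroblast markers (34.6 FPKM), and all of these were at 0 in the nucleolin library. Lck was the single T cell marker listed (8.92 FPKM with anti-nucleolin), and no neutrophil, B cell or endothelial marker was. Rn45s was at 70761 and 68377 FPKM, Lars2 at 11227 and 24793 FPKM, Mir6236 at 0 and 232751 FPKM, and Mir142b at 10684 and 0 FPKM. Fragments of these RNAs were taken to be part of the library totals behind the shares above, which was not established. Leaving out these 4 RNAs raised the chromosome 11 log2 ratio from 0.79 to 2.23 and that of Ccl3 from 0.11 to 1.55. The part of the digestive, epithelial and fibroblast markers in the chemokine ratios was not tested.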

How the data were processed

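The deposited table gives FPKM for 33529 transcript rows, 1 column per library, per the file headers; FastQC 0.10.0, Trimmomatic 0.32 and build mm10 are named in the submitters' processing notes. Which aligner, quantification tool and strand setting were used is not given in the sources used here. Nucleolin values are those of the sample titled for nucleoplasmic RNA, a match made through the series' design text and the symbol in the column name. Rows were summed per symbol (56 rows without one were left out), and genes at 1 FPKM or more in a library were compared with a pseudocount of 1, which understates changes of low genes. A 2-fold difference was counted, with no test.

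Fragment numbers were recovered with Python 3.11.15, numpy 2.4.6, pandas 2.3.3 and scipy 1.17.1, on the assumption that FPKM is fragments over transcript length less mean fragment length. The relation of the reciprocal FPKM of genes in both libraries gave the ratio of totals and the difference of the length terms. The totals followed from the requirement that lengths be whole, and the length offset from 3 genes whose length equals their genomic span. Both totals came out whole within 0.003 (23668.9992 and 60895.9975). Pairs of over 6 fragments were not used to set the length scale, and 68 of 70 of them gave a whole length, where the tolerance covers 2% of values. On simulated data built to this formula, 100% of 397 and of 307 recovered pairs were right. Genes in 1 library were given the single fragment number with a whole length no longer than the gene's span. Intervals are Clopper-Pearson (ratios) or exact Poisson (shares).

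The members and lists were chosen with earlier results of these data known. Named genes were every member, the 3 highest measured genes of each pathway list, the 4 dominant RNAs and the 5 genes nearest to Ccl3; other names were chosen after their values were seen. Other pseudocounts, minimum levels, scalings and row choices (8 settings), and 2 settings added after seeing the data, are given at the end.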

Additional observations from a re-analysis of the deposited data

How the results depend on the processing

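The number of chemokines at least 2-fold higher stayed between 5 and 6 under 8 other pseudocounts, minimum levels, scalings and row choices and was 2 in shares of recovered fragments and 3 in such shares rescaled without the 4 abundant RNAs. Both of these were chosen after seeing the data, and genes at 0 in the IgG library have no ratio in them. The number at least 2-fold lower was 2 as reported, 1 with a pseudocount of 10 FPKM, and 0 when ratios were centred on the median of all genes, when 1 read was worth the same in both libraries, or after rescaling without Rn45s, Lars2, Mir6236 and Mir142b, in FPKM or in shares. Under these 3 scalings the summed log2 ratio of the chromosome 11 genes moved from 0.79 to 2.06, 2.15 and 2.23 (2.47 in rescaled shares), and that of the chromosome 5 genes from 0.70 to 1.97, 2.05 and 2.13 (2.08). Of the 3, the setting of 1 read worth the same leaves out the adjustment for library depth. Its shift reflects the 2.57 times deeper nucleolin library. Cxcl10 turned from -1.27 to 0.051 with 1 read worth the same and to 0.13 after rescaling (0.077 in rescaled shares). Of 74 values for single genes under these settings, 55 stayed within counting error of the reported value or, for genes at 0 in the IgG library, within 0.5 of it on the log2 scale, the 16 that moved further were those of Ccl2, Ccl5 and Cxcl2 and that of Ccl3 after rescaling (1.55), and 3 (those of Cxcl10) changed sign. Ccl9 stayed between 2.08 and 3.83 and Ccl4 between 1.34 and 2.87. No paired analysis was possible because each group has 1 library. Depth limits every gene with 3 or fewer fragments in both libraries to a description, and the fragment numbers rest on the assumed formula.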

Other observations

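The fragment numbers also place the chemokines beside other products of activated macrophages, chosen after their values were seen. Ptgs2, the inducible cyclooxygenase, had 3 IgG and 19 nucleolin fragments, a share ratio of 2.46 (exact 95% interval of counting error 0.725 to 13.0). Srgn, the core protein of a secretory granule proteoglycan, had 1 and 13 fragments, a ratio of 5.05 (0.759 to 215). Lyz2 and Isg15 had 10 and 4 nucleolin fragments and 0 in the IgG library. Ier3, an immediate early gene, had 1 and 2 fragments, a ratio of 0.777 (0.0405 to 45.9). Ccl9 had more fragments than any of these, 27 in the nucleolin library, on a transcript of 3008 bases. By FPKM in that library, which adjusts for length, Srgn (303) and Lyz2 (199.6) stood above Ccl9 (159.8). Isg15 (126), Ptgs2 (79.8) and Ier3 (38.4) stood below it.

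The share ratio was 1.76 (0.997 to 3.32) for the sum of the 10 chemokine genes. That of the LPS co-receptor Cd14 was 0.636 (0.284 to 1.49), and these intervals overlap. Without Ccl9 the chemokine ratio was 1.23 (0.644 to 2.49). A difference between the chemokines and Cd14 was not tested.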
